A study of Danio rerio with 6 samples.

Results

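The nuclear genes of the mitochondrial respiratory chain were followed in messenger RNA of zebrafish (Danio rerio) embryos that carried a Trdmt1 knockout or were wildtype. Members were taken by gene symbol alone, as every line of the deposited table whose lower-case symbol began with nduf, uqcr, cox4 to cox8, atp5 or sdha to sdhd, or was cyc1. That gave 97 genes of 31624 listed. They comprised 37 subunit genes of complex I, 5 of complex II, 8 of complex III, 21 of complex IV, 15 of complex V and 11 genes for assembly factors or related proteins. A further 8 lines of the same families carry upper-case symbols and are not members. The series held 6 libraries made from whole embryos, 3 labelled Trdmt1 knockout and 3 labelled wildtype, the latter called controls. Trdmt1 (Dnmt2) is an enzyme that methylates transfer RNAs. The labels used here give neither embryo age, strain, nor the kind of allele, and do not say whether the libraries within a group stem from different clutches. All p-values therefore measure the spread between these samples, which may be technical.

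The respiratory chain sits in the inner mitochondrial membrane and passes electrons from NADH (complex I) and succinate (complex II) through ubiquinone, complex III and cytochrome c to oxygen at complex IV. Complexes I, III and IV pump protons, and complex V, the ATP synthase, lets them flow back to make ATP. Most subunits are encoded in the nucleus, made in the cytosol and imported, while a few core subunits of complexes I, III, IV and V are encoded in the mitochondrial genome. Muscle, heart, photoreceptors and ion-transporting cells are rich in these complexes.

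Reads counted in genes totalled 12877132 to 18721589 per library. The transcript of trdmt1 stood between 1.08 and 3.10 RPKM (reads per kilobase of exon, scaled to the counted reads of the library) in controls and between 1.07 and 1.59 RPKM in knockouts. These ranges overlap, so this level does not check the labels. The knockout libraries were not alike. Set against sampling noise, a chi-square statistic over genes came to 1.58 per degree of freedom between knockouts 1 and 2, while the other 14 pairs of libraries gave 11.7 to 75.6. Knockout 3 was the highest of the 6 libraries in 28.6% and the lowest in 33% of the 20555 genes tested. Markers of other tissues moved with knockout 3. The 9 photoreceptor markers summed to 1037 RPKM there. They summed to 126, 74.6 and 47.6 RPKM in controls and to only 18.6 and 20.6 RPKM in knockouts 1 and 2, below all controls. Without knockout 3 their median log2 fold change was -1.42, and 2 of the 9 were called lower by edgeR at an adjusted p under 0.05. In that fit 0.196% of all tested genes were called lower and 0.789% higher. With all libraries the 9 had a median of 1.75, with 9 positive and 0 called. The 5 listed exocrine pancreas genes summed to 131 RPKM in knockout 3 and to 9.15 to 17.7 RPKM elsewhere. The part of these differences in the results on the respiratory genes was not tested. In RNA from whole embryos, fewer cells of a type and less RNA per cell cannot be told apart.

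Respiratory chain genes were among the well expressed genes in every library. Of the 97, 34 had a mean of at least 100 RPKM over the 6 libraries and 15 a mean under 10 RPKM. Together they took 1.91% to 2.05% of all RPKM in the controls and 1.99% to 2.03% in the knockouts. Per gene, complex V stood highest, with a median control level of 227 RPKM over its 15 genes and a range from 41.1 to 501 RPKM. Complex IV followed with a median of 109 RPKM, but its genes ranged from 0.713 to 471 RPKM, since it holds several weakly expressed paralogues. Medians were 90.8 RPKM for complex III, 79.3 RPKM for complex I and 61.2 RPKM for complex II. The assembly genes stood far lower, with a median of 9.66 RPKM and no control mean above 16.1 RPKM. The 82 members with a mean of at least 10 RPKM had a median coefficient of variation of 9.51% over the 3 controls. Over all 6726 tested genes at that level it was 11.8%.

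**Figure D1:**
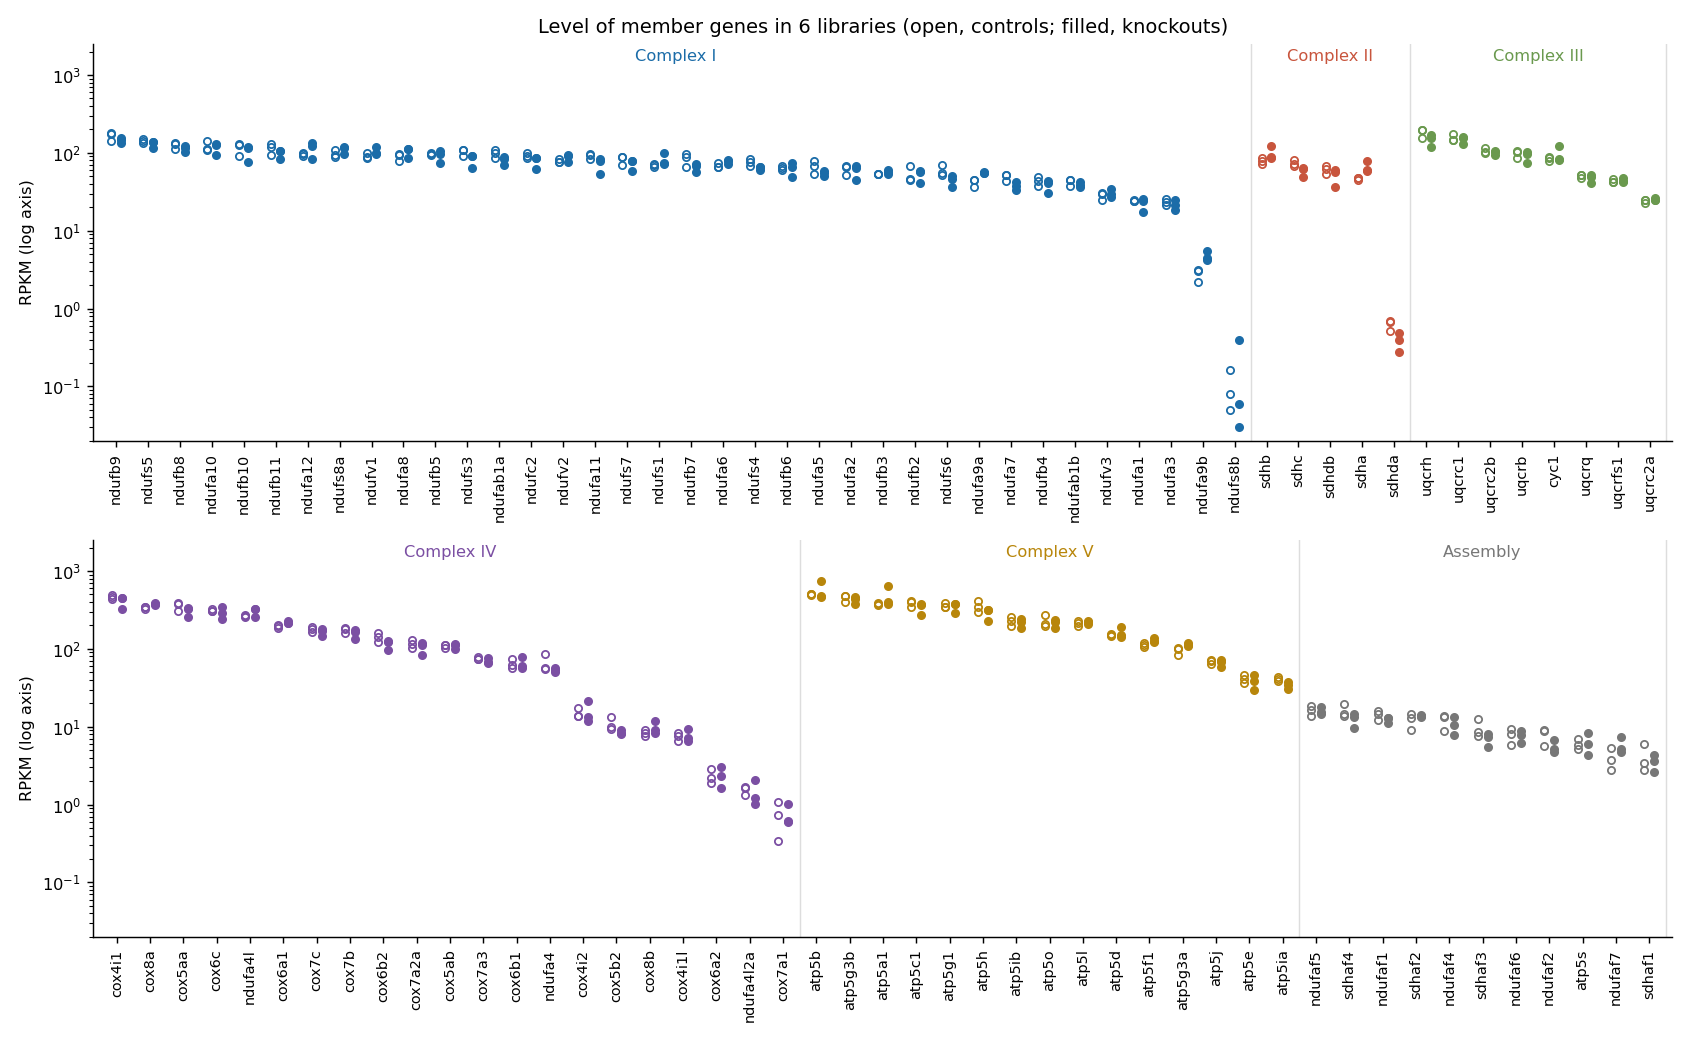
RPKM of member genes in every library, all but 1 of the 97 shown, on a log axis, grouped by complex and ordered by mean level; open points are the 3 controls and filled points the 3 knockouts, and a library at 0 is drawn near the lower end of the axis. Within most subunit genes the points of both groups overlap, and a few paralogues such as ndufs8b and sdhda lie under 1 RPKM.

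The main comparison asked whether members differed between knockout and control embryos. No member passed the test. Of the 95 with enough reads to be tested (ndufs8b and sdhda fell below the filter), 0 were higher and 0 lower at an adjusted p under 0.05 (edgeR quasi-likelihood test, Benjamini-Hochberg over 20555 genes). In all tested genes that rule called 0.102% higher and 0.0146% lower. The smallest adjusted p among members was 0.419. DESeq2 also called 0 members in either direction, where it called 0.915% of all tested genes higher and 0.224% lower. At an unadjusted p under 0.05, edgeR gave 3 members higher and 0 lower, or 3.16% and 0% of members, against 4.06% and 3.41% of all tested genes. DESeq2 gave 4 higher and 0 lower on that unadjusted rule, against 4.34% and 2.98% of all tested genes.

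Fold changes of members were small. Log2 fold changes ranged from -0.45 to 0.81 with a median of -0.04, 40 positive and 55 negative, beside a median of -0.0038 over all tested genes. These tallies turned with the scaling and with knockout 3: 57 of 95 were positive with a median of 0.042 when each library's trend with exonic length was removed, and 59 with a median of 0.031 without knockout 3. They lay within 0.25 of zero in 74.7% of tested members and in 60.3% of all tested genes. The median standard error was 0.17 for members and 0.23 for all tested genes. Those standard errors leave room for changes of this size in single genes, so a p that misses the threshold does not show equal levels. In RPKM, all 3 knockouts lay above all 3 controls in 8 members and below them in 7. That is 8.42% and 7.37% of members, against 6.3% and 9% of all tested genes. On CPM (counts scaled to the library total) adjusted by TMM the numbers were 12 and 6 members, against 7.62% and 7.44% of all tested genes.

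**Figure D2:**
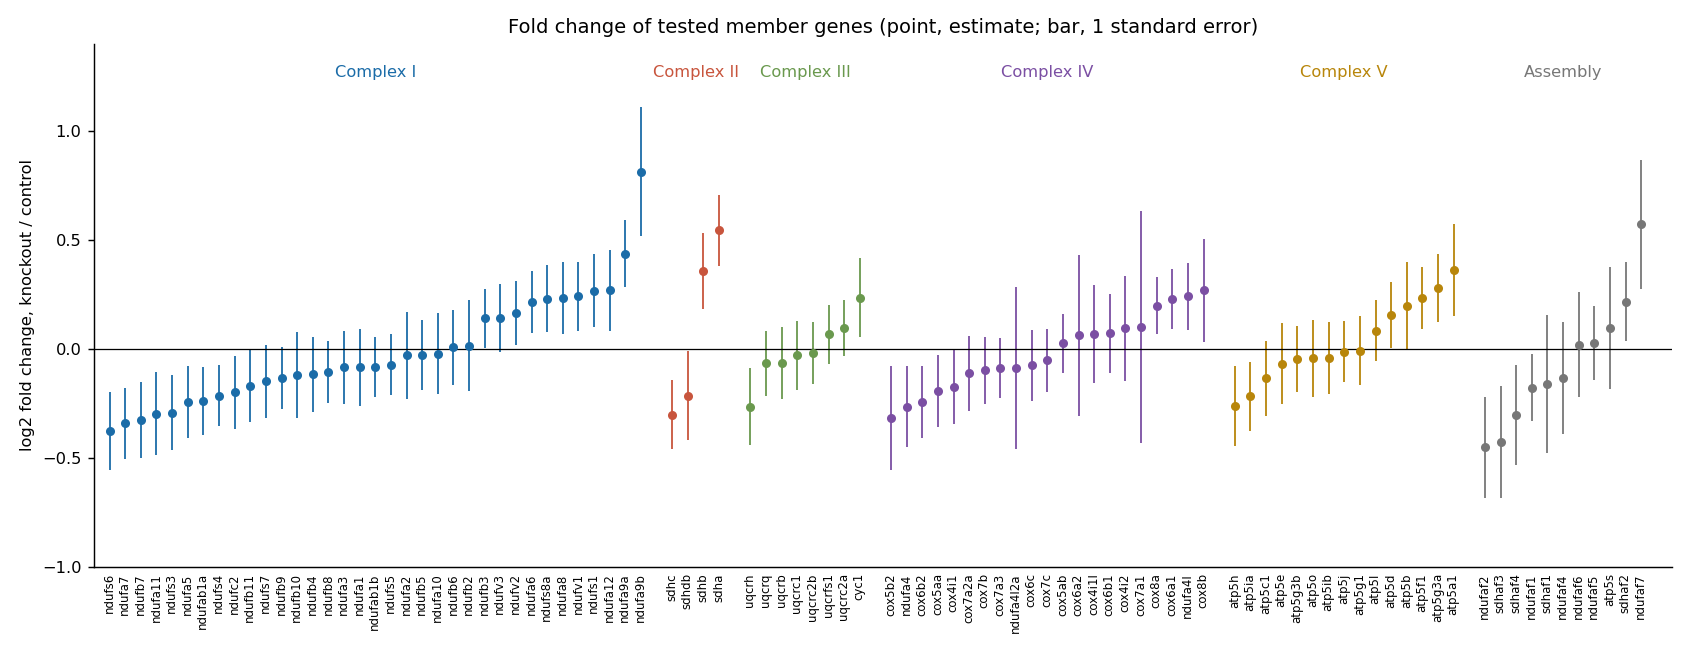
Log2 fold change, knockout over control, of tested member genes, all but 1 of the 95 shown, ordered within each complex; points are edgeR estimates and bars 1 standard error. Values run from -0.45 for ndufaf2 to 0.81 for ndufa9b, and none passed the threshold.

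Complex I, NADH dehydrogenase, had a median log2 fold change of -0.08 over 36 tested genes, 14 positive and 22 negative. The median changed sign to 0.047, with 22 positive, without knockout 3 and to 0.017, with 18 positive, when the length trend was removed. Its strongest gene was ndufb9, an accessory subunit of the membrane arm. Its levels, in the order of the library numbers as in all that follows, were 178, 172 and 143 RPKM in controls. The knockouts had 148, 154 and 135 RPKM, and the groups overlapped. The smallest p in the complex belonged to ndufa9a (ENSDARG00000070723), an accessory subunit of the peripheral arm. It stood at 44.8, 36.0 and 45.2 RPKM in controls and at 55.3, 54.4 and 56.9 RPKM in knockouts. All knockouts were above all controls, and the 3 knockouts lay close together. The log2 fold change of ndufa9a was 0.44 ± 0.15 (SE, edgeR adjusted p = 0.545).

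The weakly expressed copy of that gene, ndufa9b, had the largest positive log2 fold change of any member, 0.81 ± 0.30 (SE, edgeR adjusted p = 0.580). It stood at 2.16, 3.02 and 3.14 RPKM in controls and at 4.15, 5.53 and 4.52 RPKM in knockouts. Again all knockouts were above all controls. Reads of similar copies can be split between them, so the level of each is uncertain. The share of ndufa9a in the summed RPKM of the pair was 93.7% ± 1.58 in controls and 92.1% ± 1.20 in knockouts (SD, n = 3 each).

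The core subunits of complex I carry its flavin and iron-sulfur clusters. Of the 7 tested, 5 had positive values, with a median log2 fold change of 0.23 and none past the threshold. One of the 2 negative ones was ndufs3, a subunit of the peripheral arm named after its values were seen, stood at 110, 109 and 91.6 RPKM in controls and at 90.4, 91.7 and 64.4 RPKM in knockouts, with knockout 2 just above control 3.

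Several small accessory subunits had lower values in the knockouts. Of all 29 accessory subunits, 20 had negative values, with a median of -0.08. Without knockout 3, 17 of the 29 were positive, with a median of 0.026. With the length trend removed 13 were positive, with a median of -0.0099. The 3 genes that follow were picked for their large negative changes. For ndufs6, a zinc-binding subunit, levels were 55.5, 70.7 and 51.5 RPKM in controls and 46.4, 50.4 and 36.2 RPKM in knockouts (log2 fold change -0.38 ± 0.18 SE, and -0.25 without knockout 3). For ndufa7 they were 51.7, 52.1 and 43.8 RPKM and 42.2, 37.3 and 33.7 RPKM (-0.34 ± 0.16). In both genes all knockouts lay below all controls, in both with the lowest value in knockout 3. For ndufb7 they were 97.6, 89.4 and 66.6 RPKM and 72.2, 67.2 and 57.0 RPKM (-0.33 ± 0.17), where control 3 and knockouts 1 and 2 overlapped. By edgeR the adjusted p ran from 0.699 to 0.744 over these 3 genes. With the length trend removed the log2 fold changes of ndufs6, ndufa7 and ndufb7 were -0.27, -0.22 and -0.21.

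Among duplicated complex I genes, ndufs8a held nearly all of the reads, at 88.6 to 118 RPKM over the 6 libraries. Its copy ndufs8b stood at 0.16, 0.05 and 0.08 RPKM in controls and at 0.06, 0 and 0.39 RPKM in knockouts. The acyl carrier protein gene ndufab1a took 69.7% ± 1.13 of its pair with ndufab1b in controls and 67.3% ± 2.26 in knockouts (SD, n = 3 each).

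Complex II, succinate dehydrogenase, joins the respiratory chain to the tricarboxylic acid cycle and is wholly nuclear-encoded. None of its 4 tested genes passed the threshold. The catalytic pair sdha and sdhb had positive values and the membrane anchors sdhc and sdhdb negative ones. The flavoprotein gene sdha (ENSDARG00000016721), which oxidises succinate, stood at 47.0, 45.3 and 46.9 RPKM in controls and at 60.0, 58.5 and 79.3 RPKM in knockouts. Controls spanned under 2 RPKM, and all knockouts were above them, with knockout 3 highest. Its log2 fold change of 0.54 ± 0.16 (SE) had the smallest p of any member and did not pass (edgeR adjusted p = 0.419). The iron-sulfur subunit gene sdhb stood at 71.5, 86.1 and 78.9 RPKM in controls and at 85.4, 87.8 and 122 RPKM in knockouts (0.36 ± 0.17 SE, edgeR adjusted p = 0.715). Here knockout 1 overlapped the controls and knockout 3 stood apart. Without knockout 3 the log2 fold change of sdhb was 0.18.

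The anchor subunits bind ubiquinone and hold the catalytic pair to the membrane. The anchor gene sdhc stood at 72.2, 81.4 and 67.0 RPKM in controls and at 62.5, 63.0 and 48.4 RPKM in knockouts, all knockouts below all controls (-0.30 ± 0.16 SE, edgeR adjusted p = 0.737, and -0.19 without knockout 3). The second anchor gene, sdhdb, stood at 62.1, 68.0 and 53.6 RPKM in controls and at 57.3, 60.2 and 36.4 RPKM in knockouts, the first 2 of which lay within the control range. Its copy sdhda was nearly silent, at 0.52, 0.69 and 0.67 RPKM in controls and 0.28, 0.40 and 0.49 RPKM in knockouts. The genes sdhc and sdhdb were named as the partners of the pair after their values were seen.

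The ratio of sdha to sdhc within a library does not depend on library scaling. It was 0.651, 0.556 and 0.701 in controls and 0.960, 0.930 and 1.64 in knockouts, and the groups did not overlap. That follows from sdha lying above and sdhc below all controls in each knockout, so it adds no separate result. The ratio of sdhb to sdhc was 0.991, 1.06 and 1.18 in controls and 1.37, 1.39 and 2.51 in knockouts, again without overlap. These ratios were formed after the values were seen and are given as a description, with no test.

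Complex III is the cytochrome bc1 complex. Its median log2 fold change was -0.02 over 8 genes, 3 positive and 5 negative, and in none of them were the groups separate. The median was 0.027 without knockout 3, with 7 positive, and 0.029 with the length trend removed, with 5 positive. The gene uqcrh, a small hinge subunit, had both the highest level and the smallest p. It stood at 195, 199 and 154 RPKM in controls and at 168, 156 and 118 RPKM in knockouts (-0.26 ± 0.18 SE, edgeR adjusted p = 0.777), with control 3 below knockouts 1 and 2. Without knockout 3 its log2 fold change was -0.13. The core protein gene uqcrc2a was the weakest and the steadiest of the complex, at 25.1, 24.9 and 22.7 RPKM in controls and 26.2, 24.7 and 24.8 RPKM in knockouts. Its copy uqcrc2b took 81.2% ± 1.20 of the pair in controls and 80.0% ± 0.642 in knockouts (SD, n = 3 each). Of the upper-case lines left out by the rule, UQCR10, a small subunit of this complex, stood at 177, 220 and 164 RPKM in controls and at 155, 151 and 97.9 RPKM in knockouts, all knockouts below all controls. It was named after its values were seen.

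Complex IV, cytochrome c oxidase, has a core encoded in the mitochondrial genome, around which the nuclear subunits sit, many of them in tissue isoforms. The 3 genes of the ndufa4 family, once assigned to complex I, are counted here. Its median log2 fold change was -0.05 over 21 genes, 10 positive and 11 negative, and it was 0.073, with 15 positive, when the length trend was removed. Without knockout 3 it was 0.012. The strongest gene, cox4i1, stood at 470, 499 and 443 RPKM in controls and at 446, 449 and 321 RPKM in knockouts (-0.18 ± 0.17 SE), with knockout 3 alone outside the controls' range. Without that library its log2 fold change was -0.032. The smallest p belonged to cox6a1, at 201, 184 and 197 RPKM in controls and 218, 215 and 231 RPKM in knockouts. All knockouts were above all controls (0.23 ± 0.14 SE, edgeR adjusted p = 0.761).

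Isoform use in complex IV was lopsided in all libraries. The isoform cox4i1 took 96.9% ± 0.249 of its pair with cox4i2, known in mammals as a lung and hypoxia form, in controls and 96.1% ± 2.02 in knockouts (SD, n = 3 each). Knockout 3 had the lowest share, 93.8%, with cox4i2 at 21.4 RPKM there and 11.9 to 17.3 RPKM elsewhere. The share of cox6a1 in its pair with cox6a2 was 98.5% to 99.3% over the 6 libraries. That of cox8a in its pair with cox8b was 97.1% to 97.8%. The gene cox7a1, known in mammals as a heart and muscle form, stood at 0.34, 1.07 and 0.73 RPKM in controls and at 1.01, 0.59 and 0.62 RPKM in knockouts, against 82.8 to 130 RPKM for cox7a2a.

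Other pairs of complex IV were more even. The share of cox5aa with cox5ab was 77.8%, 76.9% and 75.1% in controls and 74.9%, 74.2% and 72.1% in knockouts, all knockouts below all controls by a small margin. The share of cox6b2 with cox6b1 was 68.8% ± 4.41 in controls and 63.8% ± 7.60 in knockouts (SD, n = 3 each), with knockout 3 lowest at 55.1%. In the ndufa4 family, ndufa4l stood at 255 to 270 RPKM in controls and at 322, 324 and 259 RPKM in knockouts, and took 79.9% ± 4.63 and 84.9% ± 0.975 of its pair with ndufa4. The member cox5b2 was low, at 9.34 to 13.2 RPKM in controls and 7.97 to 9.16 RPKM in knockouts. Most reads of the cox5b family fell on an upper-case line that is not a member, COX5B (ENSDARG00000015978), at 271, 237 and 275 RPKM in controls and 298, 313 and 321 RPKM in knockouts. There all knockouts were above all controls. That line and cox5b2 were named after their values were seen.

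Complex V, the ATP synthase, had a median log2 fold change of -0.01 over 15 genes, 6 positive and 9 negative. Without knockout 3, and likewise with the length trend removed, 12 of 15 were positive, with medians of 0.055 and 0.074. The catalytic beta subunit gene atp5b was the most highly expressed member of all. It stood at 506, 511 and 487 RPKM in controls and at 460, 475 and 746 RPKM in knockouts. Knockouts 1 and 2 were below all controls and knockout 3 above them. The log2 fold change of atp5b was 0.20 ± 0.20 (SE) with all libraries and -0.060 without knockout 3. The alpha subunit gene atp5a1 stood at 375, 393 and 370 RPKM in controls and at 395, 382 and 649 RPKM in knockouts. Knockout 1 was just above the controls, knockout 2 within their range and knockout 3 far above. The log2 fold change of atp5a1 was 0.36 ± 0.21 (SE, edgeR adjusted p = 0.757) with all libraries and 0.074 without knockout 3.

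The c-ring of the membrane part, through which protons pass, is encoded by several genes for the same mature protein. Its gene atp5g3a had the smallest p of the complex and stood at 100, 82.6 and 103 RPKM in controls and at 118, 113 and 108 RPKM in knockouts, all knockouts above all controls (0.28 ± 0.16 SE, edgeR adjusted p = 0.753). The other c-ring genes were stronger, atp5g3b at 404 to 484 RPKM and atp5g1 at 345 to 384 RPKM in controls. In its pair with atp5g3a, atp5g3b took 82.6% ± 2.78 in controls and 79.0% ± 1.07 in knockouts (SD, n = 3 each). The weakest gene of the complex by mean, atp5ia, for the small e subunit, stood at 38.8, 43.4 and 41.0 RPKM in controls and at 37.7, 30.7 and 34.8 RPKM in knockouts. All knockouts were below all controls (-0.22 ± 0.16 SE). Its copy atp5ib took 84.7% ± 1.02 of that pair in controls and 86.2% ± 1.70 in knockouts.

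Assembly genes had a median log2 fold change of -0.13 over 11 genes, 5 positive and 6 negative, and in none were the groups separate. The median was -0.055 without knockout 3 and -0.028 with the length trend removed. The complex I assembly factor gene ndufaf2 stood at 8.83, 9.05 and 5.63 RPKM in controls and at 5.18, 6.74 and 4.77 RPKM in knockouts (-0.45 ± 0.23 SE, edgeR adjusted p = 0.733). The gene ndufaf7, for a methyltransferase that modifies a core subunit of complex I, stood at 3.73, 2.82 and 5.33 RPKM in controls and at 4.80, 5.10 and 7.31 RPKM in knockouts (0.57 ± 0.30 SE, and 0.37 without knockout 3). The complex II factor gene sdhaf3 stood at 8.63, 12.8 and 7.61 RPKM in controls and at 8.14, 7.39 and 5.41 RPKM in knockouts (-0.43 ± 0.26 SE, and -0.28 without knockout 3). In these 3 genes control 3 lay within the knockout range.

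Most of the variation among knockouts came from knockout 3, in which member genes went apart in opposite directions. It was the lowest of the 6 libraries in 57 of 95 tested members and the highest in 23. That is 60% and 24.2% of members, against 33% and 28.6% of all tested genes. Medians of log2 CPM relative to the control mean were 0.06, -0.00011 and -0.24 in knockouts 1, 2 and 3. Controls 1, 2 and 3 had medians of 0.03, 0.03 and -0.05. In knockout 3 the median was -0.32 for complex I, -0.13 for complex IV, -0.17 for complex III, -0.20 for complex V and -0.32 for assembly genes, and 0.05 for complex II. These medians are not adjusted for exonic length, and those of complexes IV and V changed sign with that adjustment, as given below.

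**Figure D3:**
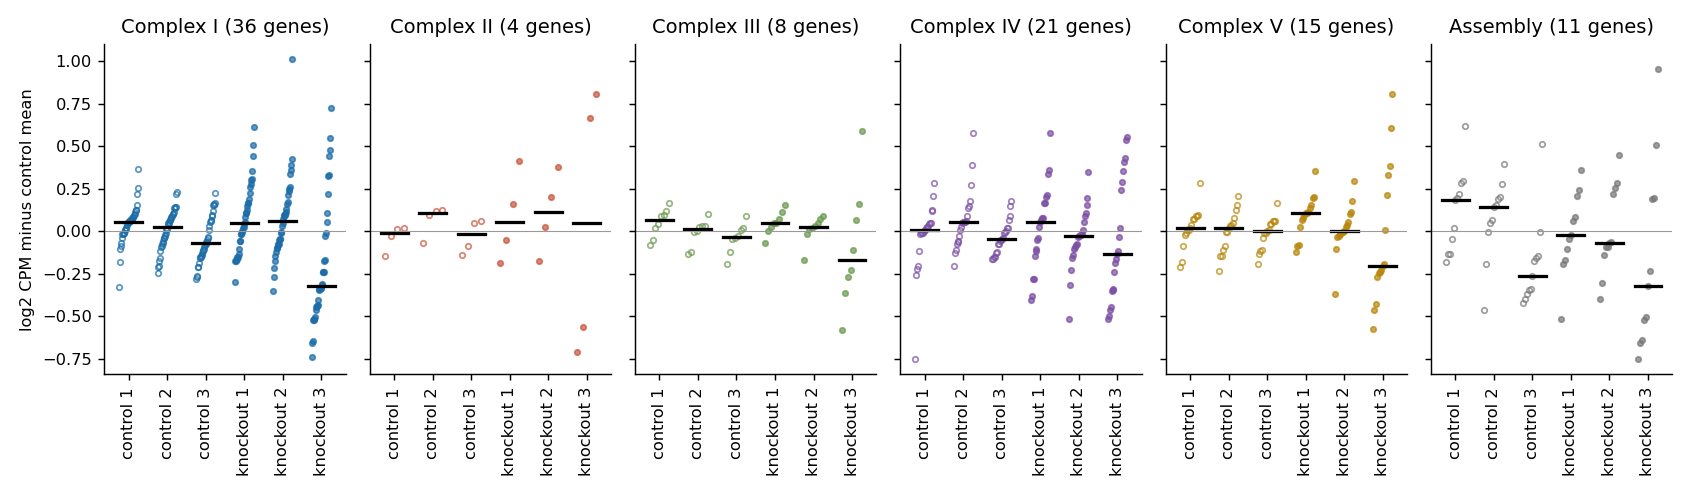
Log2 CPM of each tested member minus its mean over the controls, by library and complex; open points are controls, filled points knockouts, and the black line is the median. Knockout 3 has the widest scatter in complexes I, II, III and V, with medians of -0.32, 0.05, -0.17 and -0.20.

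The members that were high in knockout 3 included catalytic and core subunits. Relative to the control mean in RPKM, knockout 3 stood at 1.71-fold for sdha and for atp5a1, 1.54-fold for sdhb and 1.49-fold for atp5b. It stood at 1.47-fold for cyc1, the cytochrome c1 of complex III, and at 1.42-fold for ndufs1, the largest iron-sulfur subunit of complex I. Small and anchoring subunits that were low there included ndufa11 at 0.582-fold, sdhdb at 0.594-fold, atp5h at 0.648-fold and uqcrh at 0.647-fold. Some small subunits were not low. Of the 18 complex IV genes outside the ndufa4 family, knockout 3 was the highest library in 6, cox6a1 among them, and the lowest in 9. Their median log2 CPM there was -0.15 relative to the control mean, and 0.13 with the length trend removed. Over all tested genes knockout 3 was the highest in 28.6% and the lowest in 33%. Not every core subunit was high: atp5c1, the rotor subunit of ATP synthase, stood at 0.705-fold and ndufs3 at 0.622-fold. The genes given here with a fold value were picked after their values were seen.

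Of the 16 tested core, catalytic and F1 subunits, knockout 3 was the highest library in 10 and the lowest in 5. Of the other 79 members it was the highest in 13 and the lowest in 52, against 28.6% and 33% of all tested genes. The median in knockout 3 relative to controls was 0.36 for the former and -0.24 for the latter on the log2 scale. In knockouts 1 and 2 the former had medians of 0.09 and 0.05 and the latter of 0.05 and -0.01. The classes pooled in the former differed. In the 7 tested core subunits of complex I, knockout 3 was the highest in 3 and the lowest in 3, with a median of 0.05. It was the highest in all 4 catalytic subunits, with a median of 0.62. Of the 5 F1 subunits it was the highest in 3 and the lowest in 2, with a median of 0.38. This division by role was drawn up after the values were seen and is a description, with no test. The 3 core protein genes of complex III, uqcrc2a among them, were counted with the other members. Knockout 3 was the highest library in 0 of these 3 and the lowest in 2, with a median of -0.11. The ratio of atp5a1 to atp5c1 within a library was 0.950, 0.947 and 1.08 in controls and 1.04, 1.03 and 2.39 in knockouts. The ratio of cyc1 to uqcrb was 0.820, 0.860 and 0.916 in controls and 0.800, 0.873 and 1.67 in knockouts. In both ratios knockouts 1 and 2 lay within or just beside the control range, and knockout 3 was far above it.

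**Figure D4:**
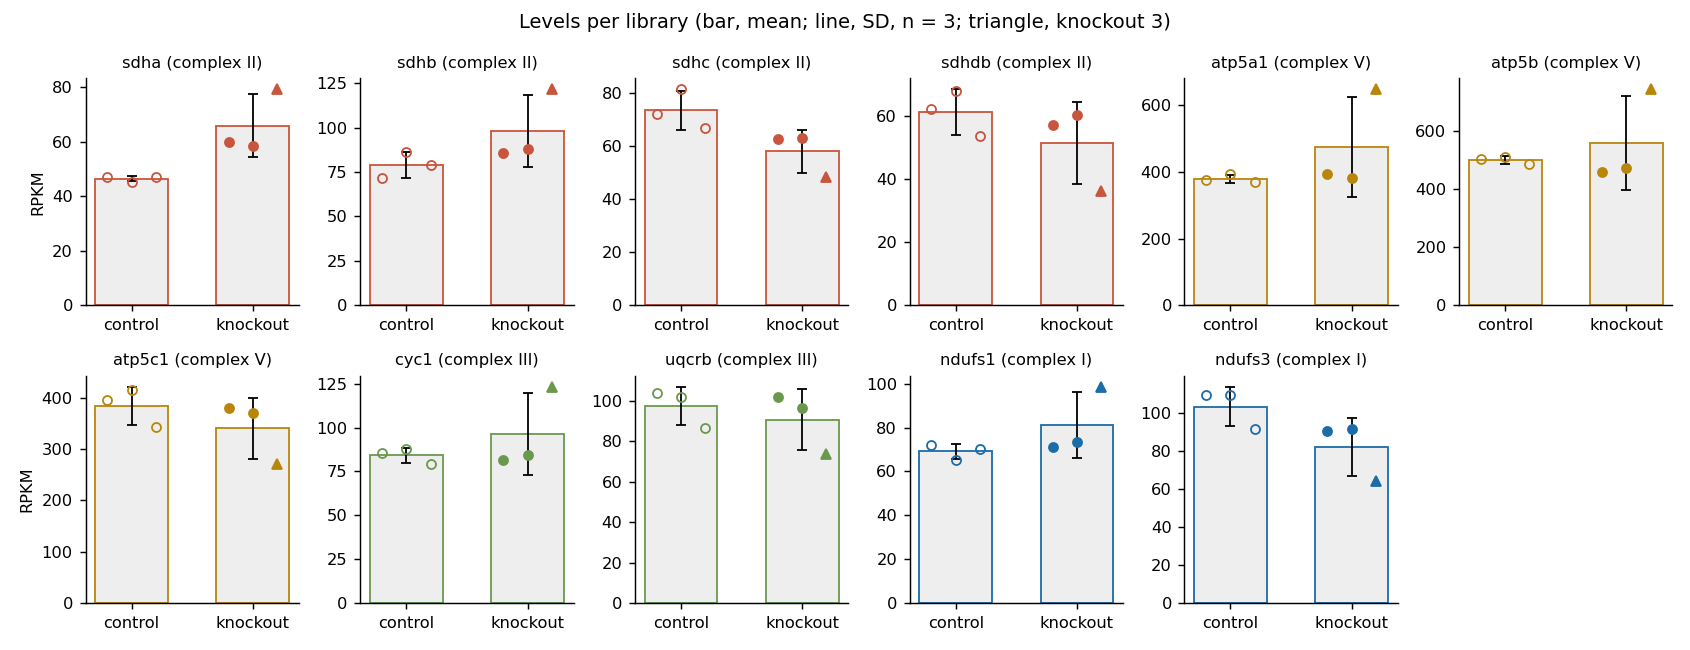
RPKM per library of 11 subunit genes of complexes I, II, III and V, chosen after their values were seen; bars are means, lines SD (n = 3), open circles controls, filled circles knockouts 1 and 2, and triangles knockout 3. The triangles lie above the controls in sdha, sdhb, atp5a1, atp5b, cyc1 and ndufs1 and below them in sdhc, sdhdb, atp5c1, uqcrb and ndufs3.

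Exonic length moved with these values. Members are short, with a median exonic length of 959 bases against 2368 bases over all tested genes. In knockout 3 all tested genes under 1000 bases had a median of -0.26 relative to controls, over 1804 genes, and longer genes a median of 0.0083. The 50 tested members under 1000 bases had a median of -0.26 and the 45 longer ones -0.19. Across the 95 members, which share the same libraries, Pearson's r of the knockout 3 difference with log2 length was 0.34, and across all 20555 genes 0.14. With each library's trend with length removed, the median of members in knockout 3 was -0.0023, and knockout 3 was the highest library in 28 members and the lowest in 29. That is 29.5% and 30.5% of members, against 31.3% and 29.9% of all tested genes on the same values. By complex, the medians in knockout 3 were then -0.054 for complex I, 0.22 for complex II and -0.037 for complex III. They were 0.16 for complex IV, 0.047 for complex V and -0.25 for assembly genes. On these values the core, catalytic and F1 subunits had a median of 0.44 in knockout 3 and the other members -0.03, again for groups drawn up after the values were seen. For the core subunits of complex I alone it was 0.23. The part of length in these differences was not tested. No member passed the edgeR test with the trend removed, where 0.117% of all tested genes were called higher and 0.0195% lower.

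**Figure D5:**
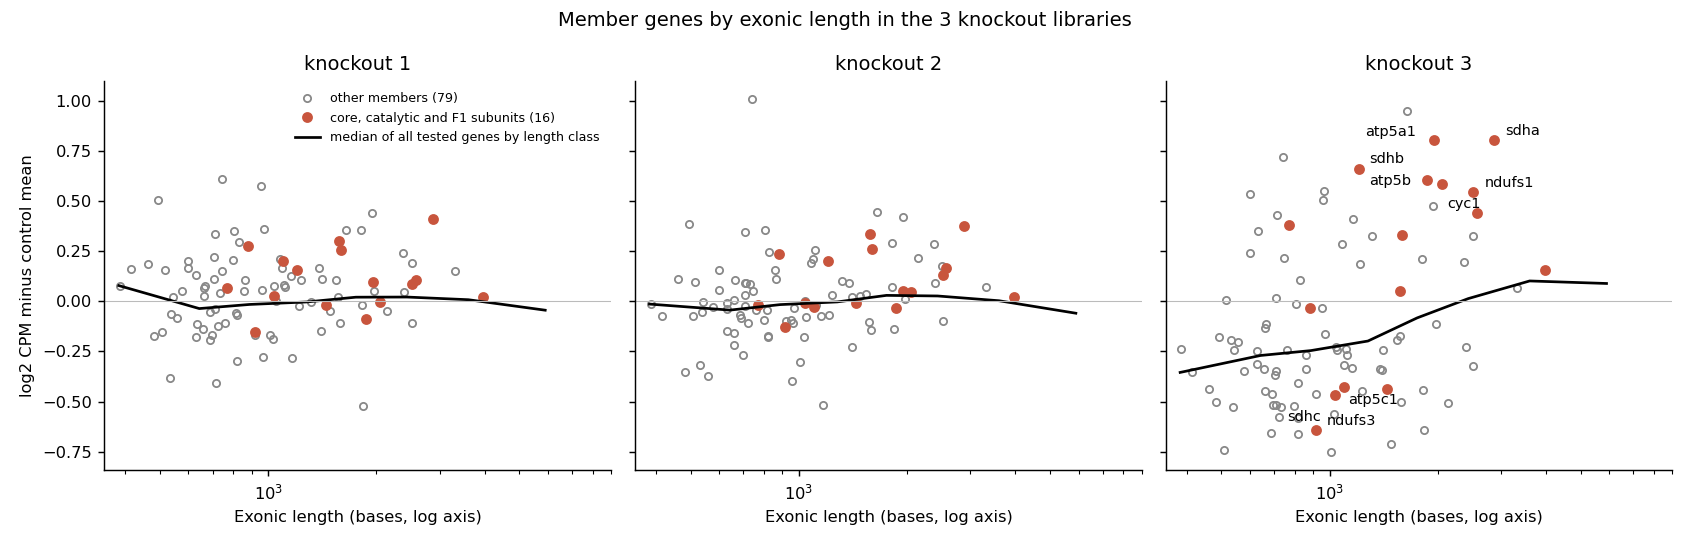
Log2 CPM minus the control mean against exonic length (log axis) for the 95 tested members in each knockout library; filled points are core, catalytic and F1 subunits, open points other members, and the line joins medians of all 20555 tested genes by length class. Core proteins of complex III are among the open points. In knockout 3 the line climbs from -0.35 in the shortest to 0.09 in the longest class, and sdha, sdhb, atp5a1, atp5b, cyc1 and ndufs1 lie above it.

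With knockout 3 left out, 59 of 95 members had positive values, or 62.1% against 47.3% of all tested genes, with medians of 0.031 and -0.018. The library medians given above do not separate the groups, since knockout 2 lay below controls 1 and 2. In that fit edgeR called 0 members higher and 0 lower, where 0.789% and 0.196% of all tested genes were called. At an unadjusted p under 0.05 there were 8 members higher and 0 lower, or 8.42% and 0% of members, against 5.99% in each direction of all tested genes. The smallest p was that of ndufa12, a complex I accessory subunit gene, at 99.0, 97.5 and 90.9 RPKM in controls and 132, 122 and 82.8 RPKM in knockouts. Its log2 fold change was 0.45 without knockout 3 (edgeR adjusted p = 0.157) and 0.27 with all libraries. For sdha it was 0.39 without knockout 3 (edgeR adjusted p = 0.198). Over all 14 settings tried, the adjusted p ranged from 0.157 to 0.976 for ndufa12 and from 0.146 to 0.976 for sdha. In RPKM, knockouts 1 and 2 both lay above all controls in 14 members and below them in 10, or 14.7% and 10.5%, against 13.6% and 19% of all tested genes.

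The partner subunits encoded in the mitochondrial genome were measured too, all 13 of them, and none passed the test. Their median log2 fold change was -0.17, with 3 of 13 positive. Their RPKM summed to 33692, 37753 and 34223 in controls and to 30466, 31050 and 33565 in knockouts. All knockouts were below all controls in this sum, knockout 3 by a narrow margin from control 1. The gene mt-co2, for a catalytic subunit of complex IV, stood at 7007, 9672 and 6830 RPKM in controls and at 5970, 6027 and 5898 RPKM in knockouts (-0.35 ± 0.17 SE, edgeR adjusted p = 0.699). All knockouts were below all controls, and control 2 was far above the other controls. The complex I gene mt-nd3 stood at 365, 507 and 421 RPKM in controls and at 290, 268 and 398 RPKM in knockouts (-0.40 ± 0.19 SE). Neighbouring and overlapping genes of this compact genome can share reads, and no source used here states whether counting used the strand.

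Nuclear regulators of respiratory genes had 22 tested genes, 11 positive, with a median of 0.01 and none past the threshold. The smallest p was that of pprc1, a coactivator of the PGC-1 family, at 9.66, 10.3 and 9.85 RPKM in controls and at 6.97, 7.26 and 7.27 RPKM in knockouts. All knockouts were below all controls with little spread in either group (-0.43 ± 0.13 SE, edgeR adjusted p = 0.465). The mitochondrial RNA polymerase gene polrmt stood at 4.03, 2.61 and 3.06 RPKM in controls and at 4.17, 4.43 and 3.53 RPKM in knockouts.

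Assembly factors outside the symbol rule did not pass either. For complexes III, IV and V there were 32 tested genes, 10 positive, with a median of -0.10, and 0.0023 without knockout 3. Relative to controls their medians were 0.04, 0.02 and -0.40 in knockouts 1, 2 and 3. Among them tmem70, needed in mammals for ATP synthase assembly, stood at 16.6, 15.1 and 13.4 RPKM in controls and at 10.7, 11.0 and 7.57 RPKM in knockouts, without overlap (-0.58 ± 0.20 SE, edgeR adjusted p = 0.547). The gene taco1, a translational activator of a mitochondrial complex IV subunit in mammals, stood at 0.24, 0.56 and 1.23 RPKM in controls and at 1.99, 1.22 and 4.22 RPKM in knockouts. For complex I there were 7 tested genes, 2 positive, with a median of -0.20, and -0.054 without knockout 3. Its leading genes by p were foxred1, at 5.31 to 5.82 RPKM in controls and 4.21 to 4.79 RPKM in knockouts, and tmem126a. The latter stood at 14.7 to 23.2 RPKM in controls and 14.9 to 18.0 RPKM in knockouts. Of 3 tested genes for cytochrome c and its assembly, the cytochrome c gene cycsb stood at 376, 402 and 317 RPKM in controls and at 353, 359 and 231 RPKM in knockouts. The next by p was hccsa.1, for an enzyme that attaches heme to cytochrome c, at 9.02 to 9.53 RPKM in knockouts, within the range of the controls.

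Mitochondrial pathways that feed the chain had more positive than negative values, and no gene past the threshold. In the same fit 49.5% of all tested genes were positive. Of 23 tested tricarboxylic acid cycle and pyruvate dehydrogenase genes, 16 were positive, with a median of 0.07, and 0.018 without knockout 3. The malate dehydrogenase gene mdh2 stood at 206, 210 and 226 RPKM in controls and at 260, 260 and 290 RPKM in knockouts, without overlap (0.37 ± 0.14 SE, edgeR adjusted p = 0.609). The gene dlst, for a subunit of the oxoglutarate dehydrogenase complex, stood at 48.5 to 55.5 RPKM in controls and at 60.1, 58.5 and 86.2 RPKM in knockouts. The medians of this list were 0.04, 0.05 and 0.29 in knockouts 1, 2 and 3. Carriers, porins and uncoupling proteins had 12 of 16 positive with a median of 0.12, and 0.034 without knockout 3. In knockout 3 their median relative to controls was 0.36. Their leading genes by p were ucp3, an uncoupling protein gene at 1.32 to 1.88 RPKM in controls and 2.12, 2.41 and 5.14 RPKM in knockouts, and vdac1, an outer membrane porin gene. The latter stood at 74.8 to 110 RPKM in controls and 116 to 130 RPKM in knockouts.

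Ubiquinone synthesis had 7 of 12 positive with a median of 0.05, and 0.11 without knockout 3. Its gene coq2, which attaches the side chain of ubiquinone, stood at 5.82, 6.41 and 6.01 RPKM in controls and at 9.89, 9.26 and 9.04 RPKM in knockouts. Groups were far apart relative to their spread, and the log2 fold change of 0.67 ± 0.17 (SE) still missed the threshold (edgeR adjusted p = 0.301). The next by p was adck3, for a kinase-like protein of the same pathway, at 9.67 to 12.7 RPKM in controls and 13.1 to 15.1 RPKM in knockouts. Fatty acid oxidation had 13 of 16 positive with a median of 0.11, and 0.16 without knockout 3. Its smallest p was in acadvl, the very-long-chain acyl-CoA dehydrogenase gene, at 34.1 to 38.8 RPKM in controls and 43.7 to 49.0 RPKM in knockouts. The second was hadhaa, for the alpha subunit of the trifunctional protein, at 14.9 to 16.4 RPKM in controls and at 16.8, 16.9 and 25.4 RPKM in knockouts. Mitochondrial chaperone and import genes had 10 of 22 positive with a median of -0.02. The smallest p belonged to clpxa (ENSDARG00000029063), for the ATPase of a matrix protease, at 11.4 to 13.2 RPKM in controls and 14.4 to 19.2 RPKM in knockouts, and to hspd1. The latter, a chaperonin gene, stood at 51.7 to 68.0 RPKM in controls and 71.1 to 89.2 RPKM in knockouts. In coq2, adck3, acadvl, hadhaa, clpxa and hspd1, picked as the smallest p of their lists, all knockouts were above all controls. None of the 6 passed the threshold. Other genes of these lists also had separate groups, hadhab and timm44 with all knockouts above and timm23a with all knockouts below. Those were named after their values were seen. Over all tested genes 6.3% had all knockouts above all controls and 9% all below.

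Markers of tissues rich in mitochondria were set beside these values. The 12 fast muscle lines had a median log2 fold change of 0.05, 7 of them positive. They summed to 33035 to 40423 RPKM in controls and 35681 to 36520 RPKM in knockouts. Such sums rest on the strongest genes and can hide single markers. The line myhz1.1 (ENSDARG00000067990) stood at 482, 468 and 720 RPKM in controls and at 1004, 958 and 1031 RPKM in knockouts (edgeR adjusted p = 0.245). The 6 heart markers had a median of 0.19 and summed to 85.6 to 94.5 RPKM in controls and 93.0 to 96.0 RPKM in knockouts. The 7 ionocyte markers summed to 120 to 124 RPKM in controls and to 105, 110 and 154 RPKM in knockouts 1, 2 and 3. The last sum leaned on atp6v1aa, at 77.9 RPKM in knockout 3 and 34.8 to 37.8 RPKM elsewhere. The marker ca2 was lowest in knockout 3, at 49.6 RPKM, while the median of the 7 there was 0.72 relative to controls. The genes myhz1.1, myh6, atp6v1aa and ca2 were named after their values were seen. The 3 slow muscle markers summed to 274 to 322 RPKM in controls and 307 to 346 RPKM in knockouts, 2 of them with positive fold changes. Their median in knockout 3 was 0.68 relative to controls. One of them, smyhc1, also named after its values were seen, stood at 59.9, 48.3 and 90.6 RPKM in controls. The knockouts had 93.2, 97.9 and 115 RPKM of it (edgeR adjusted p = 0.595). Hatching gland markers had a median of -2.71 in knockout 3 relative to controls, and erythrocyte markers -0.70, against 0.62 and 0.30 in knockout 2. Of the 5 hatching gland lines, cd63, named after its values were seen, went the other way. It stood at 162 RPKM in knockout 3 and at 95.9 to 132 RPKM elsewhere. No marker in these lists was at 0 in every library of a group. Their part in the values of respiratory genes was not tested.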

How the data were processed

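Messenger RNA libraries of 6 embryo samples were compared, 3 per group. NEBNext Ultra RNA libraries were made from total RNA whose integrity number exceeded 7, per the labels' protocols. Per the submitters' processing notes, Trimmomatic 0.30, HISAT2 2.0.1, HTSeq 0.6.1 and DESeq were used with build Zv9; settings and strand are not given in the sources used here. The deposited table holds whole-number read counts per gene, not normalized, and the authors' RPKM, which equal the counts over exonic length and library total within 0.005. The deposited exonic length per gene is in bases. Another 6 per-sample columns match no sample listed here and were not used.

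Counts were filtered with filterByExpr (20555 genes kept), scaled by TMM and tested by robust quasi-likelihood in edgeR 4.0.16 (R 4.3.3) without covariates, with Benjamini-Hochberg adjustment over all tested genes and a threshold of 0.05. Standard errors were derived from the F statistic. Log2 CPM used a prior count of 2. Means and SDs are of deposited RPKM. The procedure was tested on simulated data. Alternatives were DESeq2 size factors, DESeq2 1.42.0, no filter, a mean of at least 2 RPKM, the replicate number as a block, knockouts 1 and 2 summed, an offset for each library's length trend, and each library left out.

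Members and lists were chosen with earlier results of these data known. Named genes were, per complex, the highest, the lowest and the smallest p, over all members the 5 largest changes in each direction with a mean of at least 1 RPKM, the assembly gene with the smallest p, and paralogue groups; in each other pathway list, the 2 smallest p; tissue marker lists are given as sums and medians. One member is counted in the totals but not reported here by name. Others were named after their values were seen, as said there. Library totals set the counting precision. No sequences or coordinates were used here.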

Additional observations from a re-analysis of the deposited data

How the results depend on the processing

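No member passed the threshold in the edgeR fit or in any of the 13 alternatives, with the smallest adjusted p of a member between 0.146 (DESeq2) and 0.976 (without control 2). Over all genes, 21 were higher and 3 lower by edgeR; DESeq2 called 188 and 46 and the unfiltered fit 47 and 6. Lower calls were 0 with knockouts 1 and 2 summed, where 488 genes had an unadjusted p under 0.05, and 1 with the replicate block. Leaving out 1 library gave 0 to 165 higher and 0 to 41 lower. Without control 2 both were 0 by edgeR, with 595 and 361 genes at an unadjusted p under 0.05. Without control 1 they were 7 and 1, without control 3 they were 4 and 0, and without knockout 3 they were 165 and 41. The last fit kept only knockouts 1 and 2, which were nearly alike.

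The median of complex II, 0.07 over 4 genes, was -0.32 with knockouts 1 and 2 summed and -0.20 without a filter, in both of which sdhda entered, 0.14 with the length trend removed, and 0.041 to 0.14 with 1 library left out. The median of complex IV, -0.05, was 0.073 with the length trend removed. The log2 fold change of atp5b, 0.20, ranged from -0.060 to 0.32 and that of cox7a1, 0.10, from -0.25 to 0.53 with 1 library left out; both turn sign on single libraries. Fold changes were recomputed for 22 members and 6 other genes whose values the text gives; the others of these kept their sign in each alternative that tested them, and paralogues named only for their share were not recomputed. Without knockout 3, 12 of the 22 moved over 1.5 times, 10 to smaller and 2 to larger sizes (none of the 6). Some medians changed sign while moving by less than the SD between libraries: with the length trend removed, members overall to 0.042 and complexes I, III and V to 0.017, 0.029 and 0.074. With 1 library left out, medians ran from -0.12 to 0.031 for members, -0.25 to 0.012 for assembly genes, -0.14 to 0.047 for complex I, -0.061 to 0.051 for complex III, -0.12 to 0.012 for complex IV and -0.073 to 0.055 for complex V.

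Deviations from group means correlated at -0.00015, -0.06 and -0.03 for replicate numbers 1, 2 and 3. These values cannot decide whether the numbers pair the samples. Deviations from a mean over 3 libraries are tied to each other, and knockouts 1 and 2 were nearly alike beside knockout 3. With the replicate block 17 genes were higher, and no member was called. Genes under 1 RPKM, such as cox7a1, are limited by depth.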
